A study of Mus musculus with 10 samples.

Results

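Pericytes and other mural cells, the contractile support cells that wrap small blood vessels, made up 1500 of the 55482 cells that passed quality limits in single-cell RNA libraries of embryonic mouse back skin. They were chosen by measured RNA, not by an annotation. A cell was taken as a pericyte when it held at least 3 unique molecular identifiers (UMIs, each standing for 1 captured RNA molecule) of Rgs5 and any of Kcnj8, Abcc9 or Notch3. It also had to hold none of the endothelial genes Cdh5 and Pecam1 and fewer than 10 UMIs of the keratins Krt5 and Krt14 together. The rule does not part pericytes from vascular smooth muscle cells, so the word pericyte below stands for both. A cell passed the quality limits with more than 1000 and fewer than 6000 detected genes and less than 10% of its UMIs from mitochondrially encoded genes. Because the rule reads these 8 genes, their own levels are given below as a description and never as a result.

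The 10 libraries came from embryos on a mixed C57Bl/6J and CD-1 background, of both sexes, at 3 stages given in embryonic days (E). At E15.5 there were control replicates 2 and 3 and MOF cKO replicates 5 and 6. At E16.5 there were control replicates 1 and 2 and MOF cKO replicates 1 and 2, and a lone control and a lone QPC cKO library stood for E17.5. MOF cKO embryos carried the genotype MOFfl/fl/K14Cre and QPC cKO embryos QPCfl/fl/K14Cre, and controls were wild-type or heterozygous littermates. MOF, whose gene is Kat8, acetylates lysine 16 of histone H4, and QPC, whose gene is Uqcrq, is a subunit of respiratory complex III. The Krt14 promoter drives Cre in the epithelium, so pericytes carried the floxed allele without being the cells in which Cre was meant to act. The study describes E15.5 MOF cKO replicate 6 as a mosaic in its loss of H4K16 acetylation.

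Pericytes sit on the capillary wall inside the basement membrane that they share with the endothelium, and smooth muscle cells wrap the larger vessels upstream. Endothelial PDGF-B recruits both through the receptor Pdgfrb, and Notch3 signalling keeps them in their mural state. Their tone is set by nitric oxide, catecholamines and endothelin, and by an ATP-sensitive potassium channel built from Kcnj8 and Abcc9. Rgs5, which shortens signalling by G-protein-coupled receptors, is the gene most often used to mark them.

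The targeted genes were detected in the pericytes of nearly every library, as UMIs of the gene per 1000000 UMIs of all pericytes of the library (CPM). Kat8 stood at 7.23 and 10.7 CPM in the E15.5 controls and at 3.43 and 3.81 in E15.5 MOF cKO. At E16.5 it was 12.6 and 15.6 CPM in the controls, 0 and 4.51 in MOF cKO, and at E17.5 13.7 in the control, against 17.3 in QPC cKO. The MOF cKO libraries were thus the lower ones at both stages, without overlap. The same held for 24.8% of all genes tested at E15.5 and 29.2% at E16.5. The edgeR quasi-likelihood test gave a log2 change of -1.30 ± 0.32 (SE, n = 2 per group) at E15.5, with an adjusted p of 0.284, and at E16.5 too few UMIs were present for a test. Uqcrq ranged from 141 to 485 CPM over the 10 libraries, with 141 in the E17.5 control and 183 in QPC cKO. Since the driver is epithelial, neither gene checks a genotype in these cells.

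The rule rested on clear signal in most cells. The median member held between 13 and 34 Rgs5 UMIs, depending on the library, while at most 12 members of a library stood exactly at the limit of 3 UMIs. Just outside it, at 2 UMIs, there were between 0 and 14 cells per library that met every other condition. In the E15.5 MOF cKO replicate 5 library, where these were most numerous, Pdgfrb was detected in 92.9% of the 14 cells just outside and in 100% of the 12 cells just inside. The order was reversed in E15.5 control replicates 2 and 3 and MOF cKO replicate 6. There Pdgfrb was detected in 100% of the cells just outside and in 71.4%, 88.9% and 87.5% of those just inside. At E15.5 the limit thus did not part cells with Pdgfrb from cells without it. Between 0 and 24 cells per library were left out for an endothelial gene. The keratin limit left out between 0 and 10 cells in 9 libraries and 51 cells in the E17.5 control. All 3 of Kcnj8, Abcc9 and Notch3 were present in between 34.8% and 75.5% of the members of a library.

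Depth differed widely between stages. The libraries held from 13609345 to 203392303 UMIs, the smallest being the 4 of E16.5, which were made with the older 3' v2 chemistry. These 4 gave only 12, 23, 11 and 35 pericytes, against 119 to 395 in each of the other 6 libraries, so each E16.5 value rests on few cells. The median pericyte held between 10964 and 18906 UMIs. At most 0.354% of the barcodes of the smaller library were shared by any pair of libraries. Haemoglobin RNA summed to between 13.8 and 22487 CPM in pericytes and to between 6.16 and 30825 CPM in fibroblasts of the same libraries, and was not counted as a result.

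The label held up against genes that the rule did not use. Pericytes were set beside 750 endothelial cells, taken for holding both Cdh5 and Pecam1, and 24061 fibroblasts, taken for holding Pdgfra and at least 10 Col1a1 UMIs, with the same keratin limit and at most 2 Rgs5 UMIs. Pdgfrb, the PDGF-B receptor, lay between 261 and 393 CPM in pericytes of the 10 libraries, between 0 and 8.17 CPM in endothelial cells and between 35.2 and 69.7 CPM in fibroblasts. A Pdgfrb UMI was present in a median of 92.6% of pericytes, 40.7% of fibroblasts and 2.55% of endothelial cells. Higd1b, a mitochondrial gene restricted to pericytes in many tissues, lay between 37.4 and 246 CPM, against at most 3.27 in endothelial cells and 0.561 in fibroblasts. Vtn (vitronectin, an adhesion protein) lay between 70.4 and 237 CPM, against at most 10.6 and 1.49. None of these 3 genes overlapped between pericytes and either other class.

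Other pericyte genes behaved alike in the 10 libraries. Ndufa4l2 and Cox4i2, which encode alternative subunits of the respiratory chain, lay between 789 and 2205 CPM and between 961 and 2077 CPM in pericytes. In fibroblasts Ndufa4l2 reached 268.5 and Cox4i2 35.9 CPM. Des, the intermediate filament desmin, lay between 203 and 511 CPM against at most 26.1 in endothelial cells and 11.1 in fibroblasts. Of the 18 pericyte markers, 3 did not set these cells apart from fibroblasts. Steap4, a metalloreductase, Anpep, an aminopeptidase, and Cd248, also called endosialin, differed from fibroblasts by 0.03 ± 0.29, -0.20 ± 0.13 and 0.28 ± 0.12 on the log2 scale, with adjusted p of 0.946, 0.199 and 0.057 in edgeR.

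**Figure D1:**
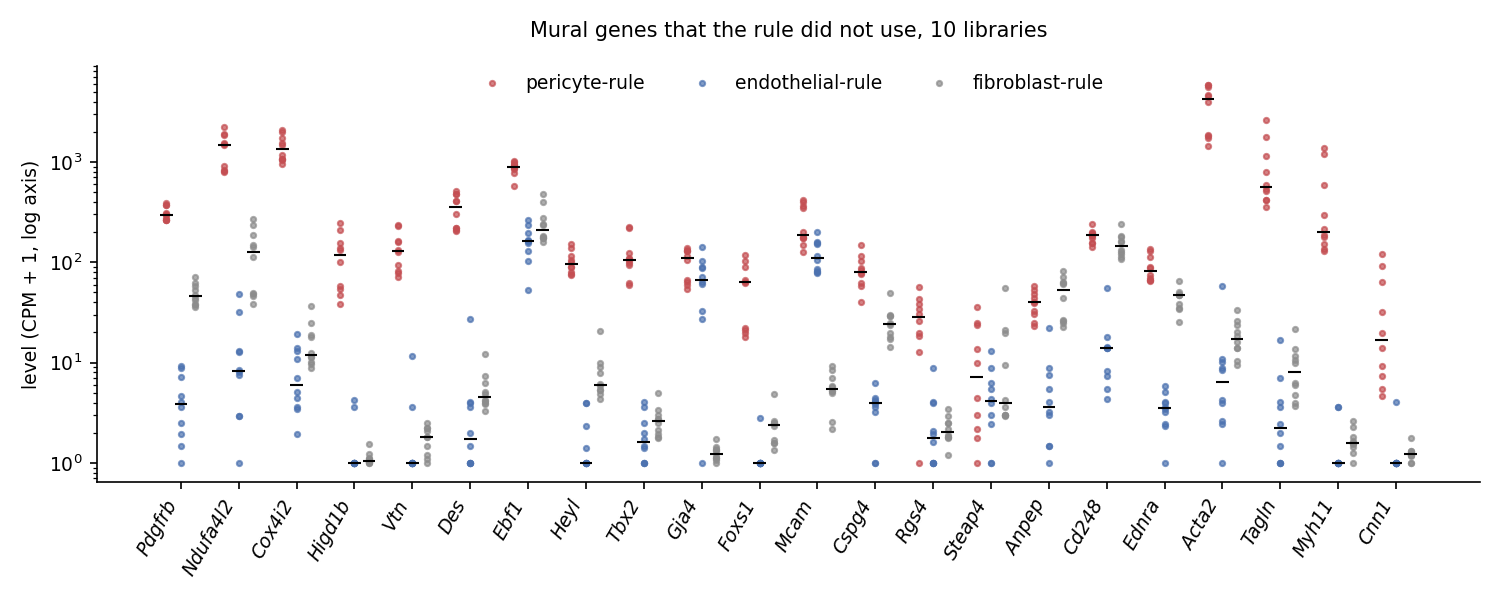
Levels of 22 mural genes that the rule did not use, as CPM + 1 on a log axis, with a point for each of the 10 libraries and a line at the median for pericytes, endothelial cells and fibroblasts. Higd1b, Vtn and Cox4i2 stand apart in pericytes of every library, while Anpep and Cd248 lie at similar levels in pericytes and fibroblasts.

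Endothelial and immune markers were low in pericytes, and fibroblast markers were not. The 14 endothelial markers, of which the rule sets Cdh5 and Pecam1 to 0, summed to between 63.2 and 141 CPM, against 4893 to 8980 CPM in endothelial cells. Cldn5, the endothelial tight-junction gene, was at most 0.444 CPM. The 8 immune markers summed to between 10.7 and 155 CPM, and Ptprc, the defining marker of leukocytes, reached 3.81 CPM. The 10 fibroblast markers summed to between 2609 and 6824 CPM, against 25699 to 68742 in fibroblasts, which Pdgfra and Col1a1 among them chose. In endothelial cells these markers summed to between 575 and 3987 CPM. Pericytes held more of them than endothelial cells in each library, with the sums closest in E16.5 MOF cKO replicate 1, at 2887 and 2518 CPM. Over the 10 libraries the median share of pericytes with a Dcn UMI was 57.7%, against 33.0% of endothelial cells and 99.0% of fibroblasts. In the Schwann cell list only Fabp7, a fatty acid binding protein, was prominent at 38.3 to 152 CPM.

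Most of the listed genes of vascular tone were higher in pericytes than in endothelial cells or fibroblasts. Differences between classes were tested with edgeR on UMIs summed per library and class, with the library as a block. Both classes were chosen on genes measured in the same cells, so these calls describe how steadily the classes differed over 10 libraries. Of all 11112 genes tested against endothelial cells 29.4% were higher and 26.3% lower in pericytes at an adjusted p under 0.05, and of 12968 tested against fibroblasts 24.1% were higher and 31.3% lower. Among the vasoactive receptors and second messengers, 19 of 31 were higher than in endothelial cells, with a median log2 difference of 4.26 beside 0.03 for all genes. Against fibroblasts 25 of 36 were higher, with a median of 2.64 beside -0.07.

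Gucy1a1 and Gucy1b1 together form the receptor for nitric oxide. Gucy1a1 lay between 202 and 738 CPM in pericytes, at most 13.2 CPM in endothelial cells and at most 13.2 CPM in fibroblasts. Gucy1b1 lay between 93.8 and 295 CPM in pericytes, against at most 31.7 and 9.99 CPM. Neither overlapped with the other classes, and the log2 differences from endothelial cells were 7.51 ± 0.26 and 5.60 ± 0.28, with adjusted p of 8.7e-15 and 1.85e-12. Adra2a, the alpha-2A adrenergic receptor, was 113-fold higher than in endothelial cells and 135-fold higher than in fibroblasts (log2 6.82 ± 0.26 and 7.07 ± 0.19, adjusted p of 3.99e-14 and 2.27e-14). Ednra, the endothelin receptor, differed less from fibroblasts, by 0.92 ± 0.14 with an adjusted p of 2.02e-05.

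Channels and junctions gave a second group. Of the ion channel and gap junction genes, 16 of 24 were higher than in endothelial cells and 16 of 23 higher than in fibroblasts, with medians of 2.32 and 2.38. Trpc6, a cation channel opened by diacylglycerol, was 103-fold above endothelial cells and 161-fold above fibroblasts, with adjusted p of 2.01e-15 and 2.57e-14. Gjc1, which encodes connexin 45, was 9.1-fold and 5.2-fold higher. Gja4, which encodes connexin 37, was 417-fold above fibroblasts but shared with endothelium. It lay between 52.5 and 139 CPM in pericytes and between 0 and 140 CPM in endothelial cells, with a log2 difference of 0.43 ± 0.18 and an adjusted p of 0.0504.

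Genes of contraction, summed over all pericytes of a library, separated pericytes as a group from both classes. The pericytes held them unevenly, and a UMI of the smooth muscle gene Myh11 was found in 25.2% to 66.7% of the pericytes of a library. Of the contractile list 26 of 32 were higher than in endothelial cells and 29 of 33 higher than in fibroblasts, with medians of 2.63 and 2.58. Acta2, smooth muscle actin, lay between 1428 and 5869 CPM in pericytes, at most 57.6 CPM in endothelial cells and at most 32.7 CPM in fibroblasts, a difference of 8.59 ± 0.29 and 7.49 ± 0.37 on the log2 scale. The adjusted p were 4.86e-15 and 3.31e-11. Actg2, enteric smooth muscle actin, had no UMI in any endothelial library and was at least 1002-fold higher in pericytes, taking 3 UMIs over the group as the floor. Smtn, smoothelin, was the exception among the 11 smooth muscle markers tested and was lower in pericytes than in either class, by 0.99 and 0.51 on the log2 scale (-0.99 ± 0.11 and -0.51 ± 0.09, adjusted p of 1.51e-07 and 0.000199).

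The stretches upstream of 3 contractile genes are shown because the summed levels of these genes set pericytes as a group apart from both other classes. Each runs 5′ to 3′ over the 250 bases before the gene's start in RefSeq (build GRCm38.p6), and capitals mark letters that match the CArG box, the motif bound by serum response factor, with at most 1 mismatch.

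Acta2 (chr19:34255374-34255623, minus strand): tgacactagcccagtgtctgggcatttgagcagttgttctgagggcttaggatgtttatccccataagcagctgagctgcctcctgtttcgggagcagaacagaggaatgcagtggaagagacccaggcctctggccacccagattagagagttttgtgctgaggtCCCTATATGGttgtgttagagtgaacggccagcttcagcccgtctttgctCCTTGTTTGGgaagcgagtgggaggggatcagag

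Myl9 (chr2:156775214-156775463, plus strand): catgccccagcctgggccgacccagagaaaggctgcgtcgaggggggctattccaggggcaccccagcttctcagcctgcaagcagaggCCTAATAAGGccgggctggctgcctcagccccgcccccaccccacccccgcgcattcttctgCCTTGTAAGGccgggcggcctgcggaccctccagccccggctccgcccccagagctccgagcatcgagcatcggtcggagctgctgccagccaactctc

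Lmod1 (chr1:135324563-135324812, plus strand): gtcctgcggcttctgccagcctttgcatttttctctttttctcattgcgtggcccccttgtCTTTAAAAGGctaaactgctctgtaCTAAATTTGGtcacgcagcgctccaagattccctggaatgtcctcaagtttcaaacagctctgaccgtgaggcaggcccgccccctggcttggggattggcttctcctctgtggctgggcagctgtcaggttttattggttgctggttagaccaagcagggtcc

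An exact CArG box was found on either strand in 1.47% of 32851 promoter windows of this length and in 4 of the 31 windows of the contractile list, those of Myl9, Cnn2, Myl6 and Vcl. With 1 mismatch allowed the shares were 18.6% and 35.5%. The AP-1 motif TGANTCA was found in 6.75% of all windows and in 3 of the 31. These matches describe letters and not bound sites. Myl9, a myosin light chain, was 107-fold above endothelial cells and 42.7-fold above fibroblasts. Lmod1, leiomodin, lay between 21.6 and 164 CPM in pericytes and at most 0.355 CPM in either other class.

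PDGF and Notch lists held genes higher and genes lower in pericytes. Of 30 genes of PDGF signalling and vessel recruitment 18 were higher and 11 lower than in endothelial cells, beside 29.4% and 26.3% of all genes. Itga1, an integrin that binds collagen, was 9.5-fold higher than in endothelial cells and 22.2-fold higher than in fibroblasts. In the Notch pathway 6 of 21 genes were higher and 10 lower than in endothelial cells, the higher ones at a share near that of all genes. Against fibroblasts 10 of 19 were higher and 5 lower, beside 24.1% and 31.3% of all genes, so the lower ones were no more frequent than among all genes. The Notch target Heyl was 100.5-fold above endothelial cells, with an adjusted p of 8.56e-14, and Jag1, a Notch ligand, was 2.97-fold higher there and 15.1-fold higher than in fibroblasts. Nrarp, a feedback inhibitor of Notch, did not pass the test against endothelial cells (log2 0.28 ± 0.19, adjusted p = 0.23) and was 68.3-fold above fibroblasts.

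Mural transcription factors were higher in 20 of 30 cases against endothelial cells and in 21 of 32 against fibroblasts. Ebf1 lay between 569 and 1015 CPM and was 5.4-fold and 3.57-fold higher. Tbx2 was 154-fold and 76.1-fold higher. Phox2a, a homeobox gene best known from autonomic neurons, lay between 45.6 and 113 CPM in pericytes, at most 0.477 CPM in endothelial cells and at most 0.204 CPM in fibroblasts. Olfr558, of the olfactory receptor family, lay between 33.7 and 70.4 CPM and carried a single UMI over all endothelial libraries.

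In genes of the fibrillar matrix, pericytes lay between the other classes. Of 35 fibrillar matrix genes 29 were higher than in endothelial cells, with a median of 1.27, and 29 lower than in fibroblasts, with a median of -1.44. Col1a2 lay between 585 and 1711 CPM, against 120 to 880 in endothelial cells and 5816 to 17131 in fibroblasts. Of 24 vascular basement membrane genes 10 were higher and 9 lower than in endothelial cells. Against fibroblasts 13 were higher and 8 lower, the lower ones at a share near that of all genes. Col4a1 and Col4a2, chains of collagen IV, did not pass the test against endothelial cells, with log2 differences of 0.11 ± 0.11 and 0.02 ± 0.08 and adjusted p of 0.402 and 0.82. Both were above fibroblasts, 4.85-fold and 4.84-fold, with adjusted p of 1.24e-11 and 2.6e-12. Among the secreted angiogenic factors 24 of 33 were lower than in fibroblasts and 4 higher, Igfbp7 being 23.2-fold higher.

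Inflammatory genes were higher in pericytes more often than all genes were, and lower at a share near that of all genes. Of 35 tested 19 were higher and 9 lower than in endothelial cells, beside 29.4% and 26.3% of all genes. Of 39 tested 16 were higher and 13 lower than in fibroblasts, beside 24.1% and 31.3% of all genes. Cxcl1, a neutrophil chemokine, was 15.1-fold above endothelial cells and 2.69-fold above fibroblasts. Ccl2, a monocyte chemokine, was 12.5-fold and 2.63-fold higher, with adjusted p of 5.62e-10 and 0.0238. Of the 77 nuclear-encoded genes of oxidative phosphorylation 52 were higher and 6 lower than in fibroblasts, with a median of 0.26, and 24 were higher and 11 lower than in endothelial cells, the higher ones at a share near that of all genes, with a median of 0.08. Cox8a, a complex IV subunit, was 2.11-fold higher than in fibroblasts. Genes of G2 and mitosis did not set pericytes apart from fibroblasts, with 8 of 52 higher and 8 lower, whereas 37 of 52 were higher than in endothelial cells.

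The genes lowest in pericytes named the other classes. Against endothelial cells these were Cldn5, Ccl21a, a lymphatic chemokine, and Gpihbp1, the capillary anchor of lipoprotein lipase, at log2 differences of -11.05, -10.57 and -9.87. Podxl had no UMI in any pericyte and was at least 499.6-fold lower. Against fibroblasts Ly6a, Penk, the precursor of enkephalin, and the Wnt antagonists Wif1 and Sfrp2 were lower, by log2 differences of -6.02, -4.46, -4.32 and -4.19. Every one of the 350 refits of the 50 leading class genes kept its direction and its call. These genes were picked as the largest called differences and refitted on the same libraries, so this is a description and adds no support.

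Within the pericytes of a library the contractile program spread over a wide range. The share of a cell's UMIs that came from 12 smooth muscle genes had a median between 0.128% and 0.655% and a ninetieth percentile between 1.09% and 4.73%, depending on the library. Acta2 was detected in 70.1% to 85.6% of pericytes and Myh11, the smooth muscle myosin, in 25.2% to 66.7%, against medians of 7.06% and 0% of endothelial cells. At least 100 Acta2 UMIs were held by 7.55% to 36.4% of pericytes. No line was drawn between contractile and other pericytes.

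**Figure D2:**
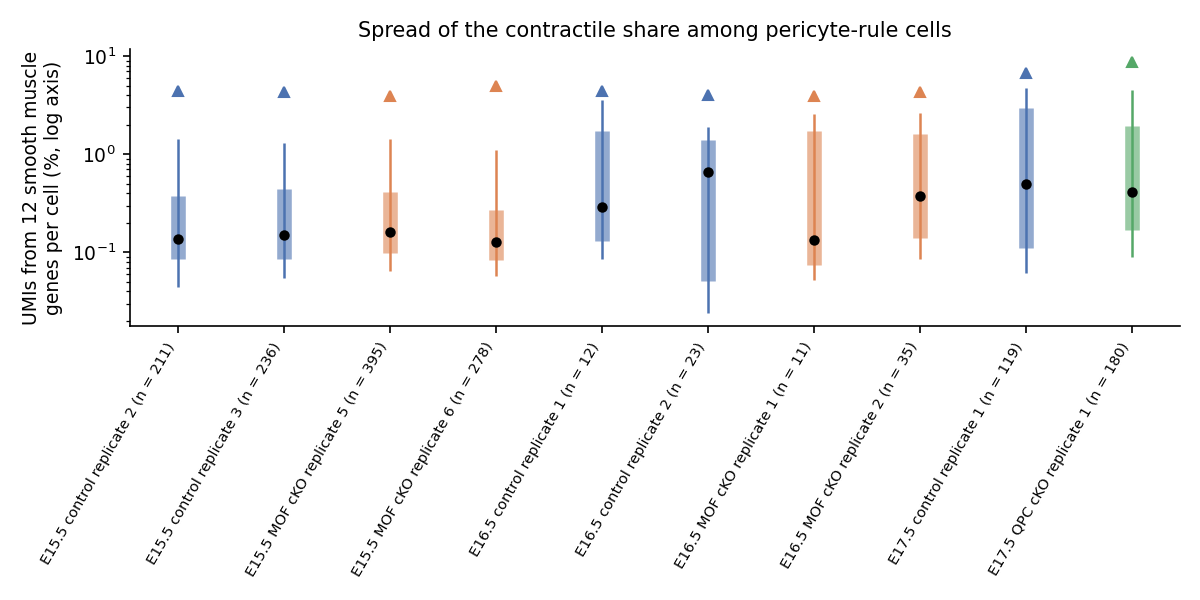
Percent of each pericyte's UMIs from 12 smooth muscle genes in the 10 libraries, drawn as the median (black dot), the quartiles (box), the tenth to ninetieth percentile (line) and the highest cell (triangle). In each library the highest cells lie far above the median, which stays under 0.7%.

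In the 6 libraries with at least 100 pericytes, cells were ranked by this share and cut into 3 groups of equal size, and the most contractile group was set beside the least, as a description since the ranking uses the same cells. Median depths of these groups lay closest in QPC cKO, at 19064 and 19117 UMIs, and furthest apart in the E17.5 control, at 20253 UMIs for the most and 18124 for the least contractile cells. Of 2987 genes, which included 10 ranking genes, 528 were higher in the most contractile cells of all 6 libraries and 423 lower. Of these, 97 higher genes outside the ranking genes and 32 lower genes had a median difference of at least 2-fold. Among the ranking genes, Actg2 and Lmod1 had medians of 0 and 0.84 CPM in the least contractile cells, against 235.6 and 92.4 in the most. Outside the ranking genes the largest differences included Procr, the endothelial protein C receptor, Gja5, which encodes connexin 40, Cav1 of the caveolae and Tpm1, a tropomyosin, with median log2 differences of 2.71, 2.64, 2.63 and 2.62. Among Notch genes Jag1 and Nrarp were higher by 1.40 and 1.62, while Heyl and Hes1, at -0.08 and 0.05, kept no common direction over the libraries. Lower in the most contractile cells were Plac8, Gap43, Lum, a matrix proteoglycan and fibroblast marker, and Col6a1, by -2.62, -2.57, -2.03 and -1.52. Some other fibroblast genes and haemoglobin moved with them in all 6 libraries, Dcn and Col3a1 by -1.33 and -0.82 and Hbb-bs, Hbb-bt and Hba-a1 by -1.66, -1.65 and -1.20. Not every fibroblast marker did, and Fbn1 was higher in all 6 libraries, by 0.34. The part of fibroblast genes and haemoglobin in the result was not tested. The pericyte genes Trpc6, Higd1b and Pdgfrb were lower there by -1.18, -0.76 and -0.65, and so were Kcnj8 and Abcc9, which the rule reads, by -0.86 and -0.81. Other pericyte genes were higher there in all 6 libraries, Ednra, Foxs1 and Mcam by 1.22, 1.15 and 0.62, and so were Rgs5 and Notch3, which the rule also reads, by 0.59 and 0.54.

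Transcripts of dividing cells were detected in many pericytes. An Mki67 or Top2a UMI was found in 56.9% to 71.6% of pericytes at E15.5, in 27.3% to 39.1% at E16.5 and in 54.6% and 52.8% at E17.5. The median share over the 10 libraries with an Mki67 UMI was 44.2% of pericytes, 43.2% of endothelial cells and 36.9% of fibroblasts, and with a Top2a UMI 34.4%, 42.3% and 37.4%. A share of cells with a single UMI rises with depth and with free RNA, no class that lacks these genes was at hand as a background, and no rate of division was read from it. The E16.5 libraries differ from the others in chemistry, and stage and chemistry cannot be told apart.

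Levels by stage are therefore given side by side, with no test. Acta2 lay between 1428 and 1861 CPM in the 4 E15.5 libraries, between 3995 and 5869 at E16.5 and at 5820 and 5559 at E17.5. Tagln, transgelin, lay between 352 and 592 CPM at E15.5, between 512 and 1144 at E16.5 and at 2621 and 1773 at E17.5. Myh11 lay between 129 and 216 CPM, between 176 and 588, and at 1370 and 1213. For Acta2 the E15.5 libraries were all below the other 6, whereas for Tagln and Myh11 the E15.5 and E16.5 ranges overlapped. Id4, an inhibitor of helix-loop-helix factors, stood at 286 and 330 CPM at E17.5 and between 0 and 55.5 CPM in the other 8 libraries. Rgs5, which chose the cells, ranged from 1193 to 2293 CPM.

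The question for the share of cells was whether pericytes were more or less frequent in skin whose epithelium lacked MOF or QPC. At E15.5 pericytes made up 2.51% and 2.59% of kept cells in the controls, against 3.88% and 2.61% in MOF cKO. The means were 2.55% ± 0.0534 and 3.25% ± 0.899 (SD, n = 2 each), with both MOF cKO libraries above both controls, replicate 6 by little. At E16.5 the shares were 1.053% and 0.940% in the controls, against 1.54% and 2.57% in MOF cKO, with means of 0.996% ± 0.0797 and 2.05% ± 0.729. The groups did not overlap at either stage. An exact two-sided permutation test gave p = 0.3333 at each stage, the smallest that 2 against 2 libraries allow. Permuting genotype within both stages at once, the mean difference of 0.875 percentage points had p = 0.05556 in an exact test, again the smallest value that its 36 arrangements allow, and under other definitions of the members or of the denominator this p lay between 0.05556 and 0.4444.

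The share differences moved with the cells taken as the denominator and with depth. Over kept cells with fewer than 10 keratin UMIs, the E15.5 difference was -0.01845 percentage points, against 0.694 over all kept cells, and the E16.5 difference was 0.843, against 1.06. With mitochondrial UMIs limited to less than 5% the E15.5 difference was -0.196. With each cell thinned to 4000 UMIs, which left out 11 to 103 shallower cells per library, and pericytes chosen again, it was 0.447 at E15.5 and 0.698 at E16.5. The thinned E15.5 shares overlapped, at 1.82% and 1.96% in the controls, against 2.83% and 1.84% in MOF cKO. They overlapped as well over kept cells with fewer than 10 keratin UMIs, when pericytes over the keratin limit were let in, with at least 5 Rgs5 UMIs asked for, and with mitochondrial UMIs under 5%. Without MOF cKO replicate 5 the E15.5 difference was 0.0588, without MOF cKO replicate 6 it was 1.33, and without E16.5 MOF cKO replicate 2 the E16.5 difference was 0.540.

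At E17.5 pericytes made up 2.22% of control cells (exact binomial 95% interval 1.84% to 2.65%) and 2.94% of QPC cKO cells (2.53% to 3.40%), with 1 library each and so no test between genotypes. The difference was 0.719 percentage points (Newcombe interval 0.135 to 1.2997, counting error only). It turned to -0.136 when cells over the keratin limit were let in, and to -1.58 over kept cells with fewer than 10 keratin UMIs. With each cell thinned to 4000 UMIs the shares were 2.41% and 2.57%, a difference of 0.157 (Newcombe interval -0.423 to 0.729). The E17.5 control pericytes held 629 CPM of the 10 epithelial markers, against 321 CPM in QPC cKO.

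**Figure D3:**
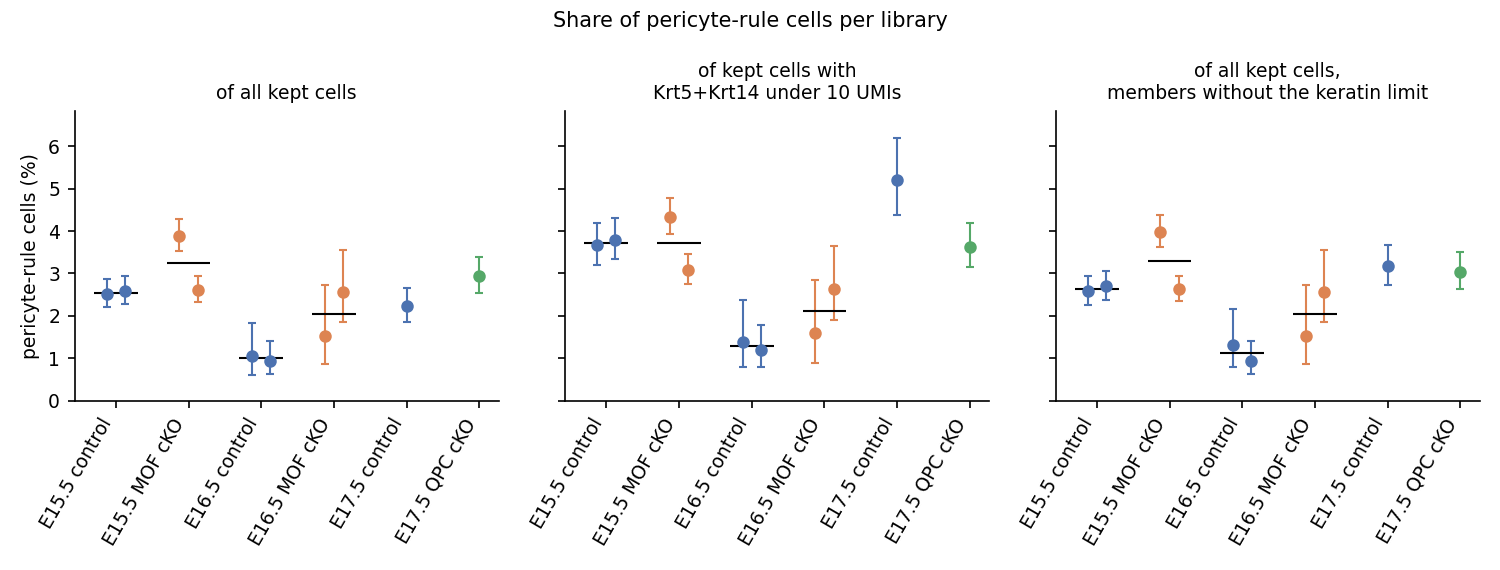
Pericytes as a percent of all kept cells, of kept cells with fewer than 10 Krt5 and Krt14 UMIs, and of all kept cells when pericytes over the keratin limit are let in, with 1 point per library, Wilson 95% intervals and a black line at the group mean. The MOF cKO libraries lie above the controls in the left panel at both stages, and the order at E17.5 turns between the left panel and the other panels.

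At E15.5 no gene of pericytes passed the test between MOF cKO and control. In edgeR 0 of 11200 genes (0%) had an adjusted p under 0.05, 1066 or 9.52% had an unadjusted p under 0.05, and DESeq2 called 15. Among these 15 were the interferon-induced genes Ifitm1, Ifitm3 and Isg15. In 15.46% of all genes both MOF cKO libraries lay above both controls, and in 24.8% below. Leaving out MOF cKO replicate 5 or replicate 6 raised the edgeR count to 100 and 102 genes, and leaving out control replicate 2 or 3 gave 3 and 26.

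Interferon-induced genes of E15.5 pericytes lay on the higher side in MOF cKO. Of the 24 that passed the filter on low counts, out of 30 listed, 15 did not overlap and were higher, with a median log2 change of 0.67 beside 0.00 for all genes. Ifitm1 was at 98.1 and 98.5 CPM in the controls, against 196 and 149 in MOF cKO (log2 0.86 ± 0.15, adjusted p = 0.174). Ifitm3 was at 744 and 669 CPM in the controls, against 1214 and 943 in MOF cKO (log2 0.65 ± 0.14, adjusted p = 0.261). Isg15, a ubiquitin-like protein, was at 23.2 and 21.9 against 69.9 and 37.2 CPM. For all 3 genes replicate 5 was the higher of the MOF cKO libraries. The list summed to 2056 and 1973 CPM in control pericytes, against 2985 and 2462 in MOF cKO, and in fibroblasts to 1404 and 1464 against 2194 and 1546.

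Nuclear-encoded genes of oxidative phosphorylation lay on the lower side in MOF cKO at E15.5. Of 77 genes tested 62 were lower without overlap and 2 higher, with a median log2 change of -0.16 and none called. Their sum was 25746 and 26661 CPM in the controls, against 23865 and 22762 in MOF cKO. Fibroblasts of the same libraries held 22567 and 22756 against 19995 and 19432 CPM, and endothelial cells 25969 and 27976 against 25564 and 24504, so the groups were ordered the same way in each class. Ndufs6, a complex I subunit, was at 140 and 153 CPM in control pericytes, against 98.4 and 101 in MOF cKO. At E16.5 the list did not lie on the lower side. There 4 of 77 genes were higher and 9 lower without overlap, beside 11.4% and 29.2% of all genes. The median log2 change was 0.19. The sums overlapped, at 25498 and 35440 CPM in E16.5 control pericytes, against 32862 and 29499 in MOF cKO.

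Of the fibrillar matrix genes at E15.5, 18 of 35 were higher without overlap, with a median of 0.23. The list summed to 9248 and 8530 CPM in control pericytes, against 9567 and 11369 in MOF cKO. In fibroblasts it summed to 30364 and 29481 against 33418 and 35936 CPM, and in endothelial cells to 2725 and 2013 against 3428 and 4410, so the order was the same in each class. The 10 fibroblast markers moved with it in pericytes, at 4783 and 4633 CPM in the controls, against 5492 and 6824 in MOF cKO, and their part in the result was not tested. Col1a2 stood at 1138 and 1118 CPM in the controls, against 1418 and 1711 in MOF cKO (log2 0.51 ± 0.10, adjusted p = 0.261). The lowest unadjusted p among higher genes belonged to Ahr, the aryl hydrocarbon receptor, at 26.2 and 27.8 CPM against 72.5 and 50.6 (log2 1.23 ± 0.20, adjusted p = 0.162). The other higher genes that the rule for naming chose were Ppp1r14b, Dcn, 1110038B12Rik, Tshz1, Ctxn1, Tnfrsf1a and H19. On the lower side Klf4, a transcription factor, was at 126 and 147 CPM against 85.5 and 82.9, and Id4 at 55.5 and 45.9 against 21.6 and 31.8. Gstm5, Cpa1, Mt2, Qpct, Tomm7, Alad and Washc3 were also named there. None of these genes overlapped between the groups.

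Contractile genes at E15.5 were not shifted in a common direction. Of 32 tested, 2 were higher and 5 lower without overlap, beside 15.46% and 24.8% of all genes, with a median log2 change of 0.00. Acta2 stood at 1861 and 1799 CPM in the controls, against 1738 and 1428 in MOF cKO, a log2 change of -0.17 ± 0.12 with an adjusted p of 0.692. Pdgfrb was at 294 and 261 against 263 and 299 CPM, with overlapping groups. Higd1b was at 101 and 57.1 against 46.6 and 37.4 CPM (log2 -0.83 ± 0.23, adjusted p = 0.362).

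At E16.5 a single gene passed the test, Rgs16, a relative of Rgs5 that shortens signalling by G-protein-coupled receptors. It had no UMI in the 12 and 23 pericytes of the control libraries and stood at 277 and 257 CPM in MOF cKO, from 63 and 114 UMIs. That is at least 36.9-fold higher, with 3 UMIs over both controls (7.24 CPM) as the floor, and the adjusted p was 0.0156 in edgeR. With no control UMI it passed the filter on low counts through the MOF cKO libraries alone, so the call is given as a description. It was the only call among 3460 genes, 0.0289%, while 7.37% had an unadjusted p under 0.05 and DESeq2 called 5, namely Rgs16, Plac8, Ifitm1, Adamts1 and Ifitm3. In MOF cKO 54.5% and 54.3% of pericytes held an Rgs16 UMI, and the highest cell gave 47.6% and 22.8% of them. The call was lost, with an adjusted p of 0.0574, when cells with markers of other types were left out, and with a replicate block at 0.19. Without a single library, edgeR called 101 genes (without control replicate 1), 172 (without control replicate 2), 18 (without MOF cKO replicate 1) and 4 (without MOF cKO replicate 2).

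Rgs16 was not silent in pericytes of other control libraries. At E15.5 it stood at 12.6 and 6.63 CPM in the controls, against 38.9 and 13.9 in MOF cKO, and at E17.5 at 748 in the control, against 384 in QPC cKO. In fibroblasts at E16.5 it was 3.14 and 1.19 CPM in the controls, against 6.91 and 6.96 in MOF cKO, and in endothelial cells 0 and 18 against 209 and 70.7. The MOF cKO libraries were the higher ones in all 3 classes. The 250 bases before its start are shown because it was the gene called, and neither the CArG box nor TGANTCA was found in this window.

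Rgs16 (chr1:153740103-153740352, plus strand): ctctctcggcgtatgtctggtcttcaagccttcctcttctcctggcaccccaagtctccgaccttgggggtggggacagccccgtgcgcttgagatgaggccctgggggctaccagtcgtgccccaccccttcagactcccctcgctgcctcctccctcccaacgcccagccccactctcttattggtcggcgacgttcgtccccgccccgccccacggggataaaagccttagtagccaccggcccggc

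Inflammatory genes lay on the higher side in E16.5 MOF cKO pericytes. Both MOF cKO libraries lay above both controls in 11.4% of all genes and below in 29.2%. Of 43 inflammatory genes 16 passed the filter and 12 of these were higher without overlap, with a median log2 change of 1.59 beside 0.01 for all genes. A gene seen mainly in MOF cKO could pass the filter through that group, so this count, like those of the other lists at E16.5, is a description. The list summed to 1933 and 2204 CPM in control pericytes, against 6183 and 4800 in MOF cKO. The fibroblast sums were 1611 and 890 against 5832 and 3978, and in endothelial cells 1044 and 738 against 3242 and 4258.

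The chemokine Cxcl1 was at 771 and 473 CPM in control pericytes, against 1932 and 1399 in MOF cKO (log2 1.62 ± 0.33, adjusted p = 0.21). Socs3, a brake on cytokine signalling, was at 63.2 and 133 against 414 and 327 CPM (log2 2.01 ± 0.40, adjusted p = 0.21). Icam1, the leukocyte adhesion molecule, was at 6.32 and 3.91 against 101 and 72.1 CPM (log2 4.15 ± 0.62, adjusted p = 0.21). None of the 3 genes overlapped and none was called. The control values of Icam1 were also below those of every other library, in which pericytes held between 72.1 and 341 CPM.

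Genes of the immediate early response showed the same order. Of 33 such genes 26 passed the filter and 16 were higher without overlap, beside 11.4% of all genes, with a median of 0.83. The list summed to 13040 and 12414 CPM in control pericytes, against 15712 and 18670 in MOF cKO. Fibroblasts held 13226 and 10694 against 16794 and 17059 CPM, and endothelial cells 10631 and 8643.6 against 14366 and 11482. The order was thus the same in each class. Atf3, a stress-induced transcription factor, was at 31.6 and 86.0 CPM in the controls, against 242 and 302 in MOF cKO, with 415 to 800 CPM in the 6 libraries of the other stages. Fosl2, an AP-1 subunit, was at 25.3 and 27.4 against 110 and 128 CPM, with 135 to 262 CPM at the other stages. Adamts1, a matrix protease, was at 69.5 and 133 against 418 and 394 CPM, with 350 to 808 elsewhere. For these genes the E16.5 controls were the lowest of all 10 libraries. Rasd1, Tnfaip6 and Arhgdib were also higher without overlap and were not called.

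Of 30 interferon-induced genes 10 passed the filter, which a gene high in MOF cKO could do through that group alone, and 8 of these were higher without overlap, with a median of 1.59. The list summed to 2312 and 2588 CPM in control pericytes, against 7042 and 5053 in MOF cKO, and in fibroblasts to 1842 and 2004 against 6299 and 4879. Ifitm3 was at 638 and 887 CPM in the controls, against 2874 and 1741 in MOF cKO (log2 1.76 ± 0.35, adjusted p = 0.21). B2m, the light chain of class I histocompatibility molecules, was at 316 and 274 against 748 and 631 CPM. Isg15 was at 44.2 and 15.6 against 110 and 198 CPM. Plac8, which was not on the interferon list, was at 63.2 and 39.1 against 995 and 248 CPM, and the highest cell gave 24.8% of its UMIs among the 11 pericytes of replicate 1 and 42.7% among the 35 of replicate 2.

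The immune markers moved with these genes. In E16.5 pericytes all 8 of them summed to 12.6 and 23.5 CPM in the controls, against 114 and 126 in MOF cKO, and 6 of the 8 were higher without overlap. Ptprc was at 0 in all 4 libraries. Lyz2, the lysozyme of myeloid cells, was at 6.32 and 0 against 52.8 and 58.6 CPM. In fibroblasts the sums were 30.8 and 59.4 against 190 and 351 CPM. Their part in the result was not tested.

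Genes lower in E16.5 MOF cKO included several of the S phase. Of 18 that passed the filter, out of 44 listed, 13 were lower without overlap, beside 29.2% of all genes. The median was -0.40, and none was called. The list summed to 1907.9 and 2294.4 CPM in control pericytes, against 1192.7 and 1250.2 in MOF cKO. Fibroblasts held 2537.5 and 2519.6 against 1011.5 and 1308.2 CPM, and endothelial cells 2726.2 and 1940 against 939.36 and 1117.5, so the order was the same in each class. Rrm2, a subunit of ribonucleotide reductase, was at 75.8 and 121 CPM in the controls, against 13.2 and 27.0 in MOF cKO (log2 -2.03 ± 0.47, adjusted p = 0.247). Gap43, a growth-associated membrane protein, was at 94.8 and 70.4 against 8.80 and 9.01 CPM (log2 -2.95 ± 0.53, adjusted p = 0.21). Eln, elastin, was at 50.5 and 102 against 4.40 and 13.5 CPM, and 1 of 11 and 5 of 35 MOF cKO pericytes held its RNA. Rpa2, Cdo1, Igfbp4, Sae1 and Mrps15 were also lower without overlap and not called.

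Krt15 and Lor, also lower in MOF cKO, are genes of the epidermis. Krt15, a basal keratin, was at 82.1 and 50.8 CPM in control pericytes, against 4.40 and 2.25 in MOF cKO. Fibroblasts held 90.1 and 63.2 against 2.24 and 8.33 CPM and endothelial cells 91.3 and 65.3 against 0 and 7.85. Lor, the cornified envelope protein loricrin, followed the same order at 215 and 78.2 against 13.2 and 18 CPM in pericytes and 267 and 122 against 25.4 and 9.01 in fibroblasts. Neither gene overlapped between the groups in pericytes or fibroblasts.

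Of 25 contractile genes tested at E16.5, 6 were higher and 2 lower without overlap, beside 11.4% and 29.2% of all genes. None was called. The median was 0.11, beside 0.01 for all genes. With scaling by library size alone it became -0.10, where all genes had a median of -0.18. Acta2 was at 5869 and 3995 CPM in the controls, against 4533 and 4598 in MOF cKO, with overlapping groups (log2 0.08 ± 0.25, adjusted p = 0.966). The mean CPM was the lower in MOF cKO, at 4565 against 4932, so the sign of this small change turned with the scaling. Heyl was at 139 and 152 against 74.8 and 74.3 CPM. Of 6 Notch genes that passed the filter 3 were lower without overlap, beside 29.2% of all genes.

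**Figure D4:**
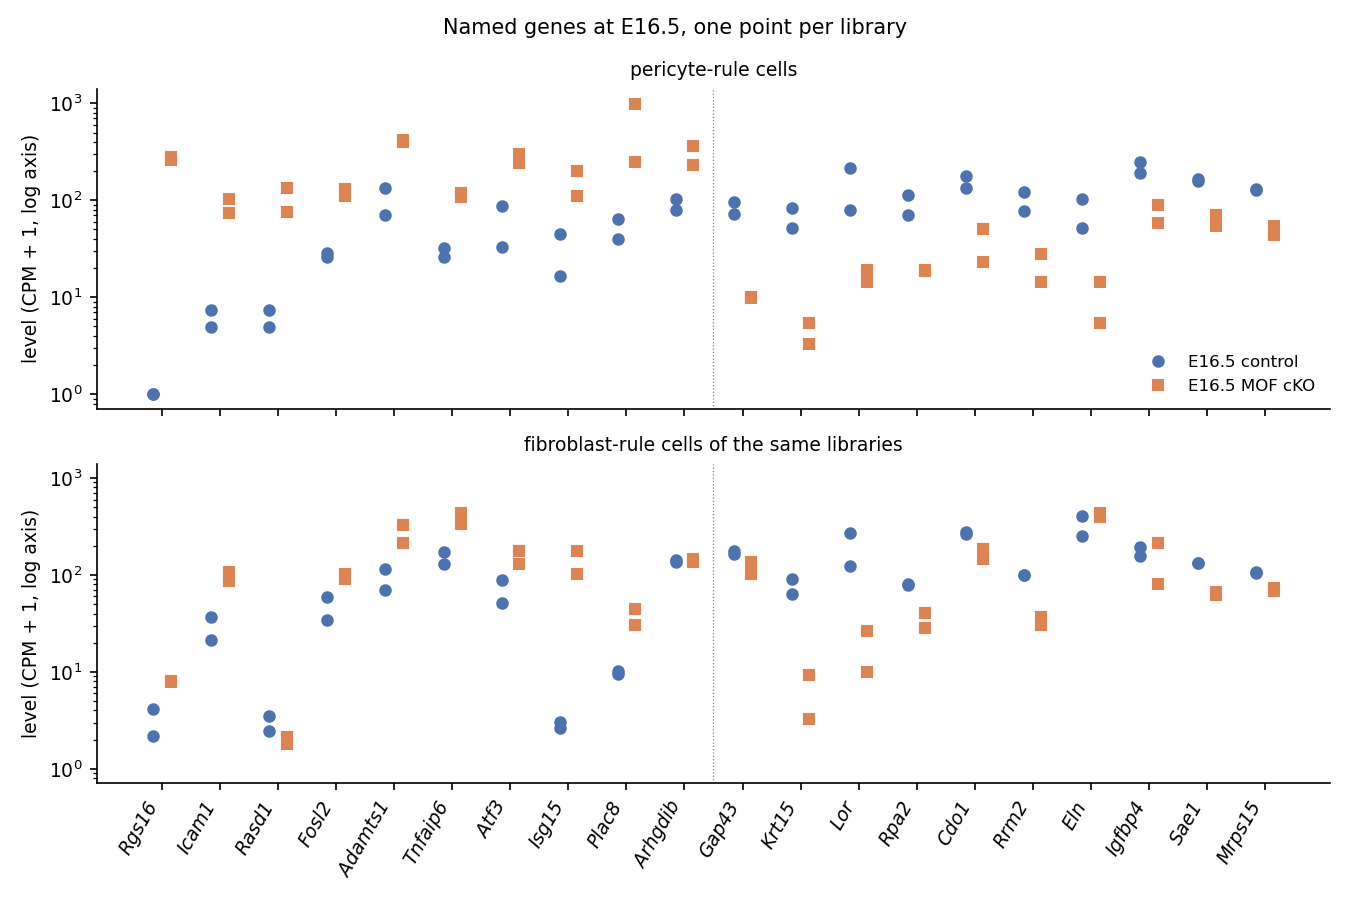
CPM + 1 (log axis) of the 20 genes named for E16.5, in pericytes and in fibroblasts, with a point for each control and MOF cKO library. Rgs16 is at 0 in both control libraries of pericytes, and Krt15 and Lor follow the same order in both classes.

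Whether pericytes responded unlike fibroblasts was tested as the interaction of class and genotype. At E16.5 it called 50 genes that were higher in pericytes relative to the change in fibroblasts, 0.442% of 11303, and 47 that were lower, 0.416%, with edgeR. DESeq2 called 5. Leaving out a library gave 87 (control replicate 1), 58 (control replicate 2), 36 (MOF cKO replicate 1) and 47 genes (MOF cKO replicate 2). In the G2 and mitosis list 7 of 52 were relatively higher, and none lower. The list as a whole did not rise in pericytes, where its median log2 change was -0.25. Its sum was 3803 and 6250 CPM in control pericytes, against 3393 and 4122 in MOF cKO, with overlap. In fibroblasts it was 5639 and 6707 CPM against 2808 and 2961, without overlap. Top2a, a topoisomerase of dividing cells, was at 213 and 293 CPM in control fibroblasts and 96.2 and 118 in MOF cKO, while pericytes had 63.2 and 149 CPM in the controls, against 88.0 and 126 in MOF cKO (interaction log2 1.27 ± 0.33, adjusted p = 0.0225). Ube2c, of the ubiquitin cascade of mitosis, was at 196 and 117 against 150 and 228 CPM in pericytes and at 224 and 322 against 123 and 136 in fibroblasts (1.46 ± 0.29, adjusted p = 0.000438). Nusap1, Hmgb2, Aurkb, Cks2 and Cdk1 gave interactions between 0.73 and 2.13. Stricter members, with no UMI of 10 further markers of other cell types, left 1, 4, 1 and 6 cells in the 4 libraries. Among these no gene was called, and all 7 reversed, Top2a to -8.72 and Ube2c to -3.31.

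Interferon and inflammatory genes were on the lower side of this interaction at E16.5, with 4 of 29 and 6 of 34 called lower and none higher. Bst2, an antiviral membrane protein, was at 221 and 78.2 CPM in control pericytes, against 251 and 320 in MOF cKO. In fibroblasts it was at 10.1 and 8.57 against 215 and 169 CPM (interaction -3.20 ± 0.34, adjusted p = 1.03e-16). The control pericytes thus held more Bst2 than the control fibroblasts, and the genotypes did not overlap in either class. This p rests on a variance drawn largely from all genes, and not on the spread of Bst2 over these libraries alone. Isg15 gave an interaction of -3.48 ± 0.67, with fibroblasts at 2.02 and 1.67 against 176 and 100 CPM. Cxcl10, Ccl11, Ccl2, Cxcl1, Irf1, Ifitm3 and Ifi27 gave -3.67, -2.42, -1.27, -0.85, -1.29, -0.80 and -1.84. In the stricter members the values of Isg15, Cxcl10, Ccl2, Cxcl1 and Irf1 turned to 5.31, 7.12, 8.59, 9.61 and 9.49, with none called. Without control replicate 2 the value of Cxcl10 was 6.58 and that of Ccl2 1.40. The 12 pericytes of control replicate 1 held no Cxcl10 UMI, and in control replicate 2 a single cell held 75% of its 24 UMIs. Of all listed genes called in this interaction, Bst2 and Rgs16 were the ones still called without each library in turn, and for Rgs16, with no UMI in the control pericytes, this is a description. Il33 was also called, with 26 UMIs over all 10 libraries in pericytes and 0 in both E16.5 MOF cKO libraries.

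Smooth muscle and matrix genes added to the lower side. Acta2, Tagln and Csrp2, a LIM protein of smooth muscle, gave -0.89, -1.31 and -1.02, with 3 of 32 contractile genes called. In fibroblasts Acta2 was near background, at 9.43 and 12.9 CPM against 22.8 and 19.2. Eln gave -3.40 ± 0.50, with fibroblasts at 402 and 250 against 395 and 437 CPM. Bgn, Col1a2, Igfbp7, Igfbp4 and Igf2 were the other matrix and growth factor genes called lower. In the stricter members Acta2, Tagln, Csrp2, Eln, Col1a2 and Igfbp4 turned to 2.67, 4.60, 0.063, 7.30, 0.74 and 0.28, none of them called. Id1, Mif, Dnajb1, Cox5a, Cycs and Rgs16 were called higher.

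At E15.5 the same interaction called 29 genes higher, 0.198% of 14664, and 10 lower, 0.0682%. Leaving out control replicate 2 gave 20 genes, MOF cKO replicate 5 165 and MOF cKO replicate 6 127, and each listed gene named here was lost without at least 1 library. Listed members among them were Efnb2, an ephrin of arterial and mural cells, Dcn, Mmp2 and Cycs on the higher side (log2 0.91, 0.38, 1.12 and 0.39) and Ifi27 and Ebf3 on the lower (log2 -1.27 and -1.65). Efnb2 was at 37.3 and 33.9 against 38.4 and 48.4 CPM in pericytes and at 75.7 and 61.2 against 40.4 and 52.7 in fibroblasts, with an adjusted p of 0.0165. Mmp2, a collagenase, was at 10.6 and 13.3 against 26.0 and 30.5 CPM in pericytes.

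Whether the MOF cKO change differed between the stages was tested in 1 fit of 8 libraries. Of 9956 genes 0 were called by edgeR (0%), 724 had an unadjusted p under 0.05, and DESeq2 called 27. The fit without filtering on low counts called 82.

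At E17.5 the QPC cKO library was compared with 1 control, so ratios are given with exact Poisson intervals that cover counting error only. Of 5039 genes that reached 100 UMIs in the control or in QPC cKO, 23 were at least 2-fold higher in QPC cKO with intervals apart, 0.456%, and 107 lower, 2.12%. Chemokines were prominent on the lower side. Ccl2 was at 1796 CPM in control pericytes (95% interval 1741 to 1852) and 99.9 in QPC cKO (89.6 to 111), and 91.6% and 34.4% of pericytes held its RNA. Cxcl2 was at 684 against 101 CPM, Cxcl10 at 379 against 60.4, and Ccl7 at 97.6 against 5.18. Of 25 inflammatory genes 17 were lower by the same rule and 0 higher, with a median log2 ratio of -1.40 beside 0.03 for all genes.

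Fibroblasts of the same libraries moved the same way. There Ccl2 was at 1778 CPM in the control, against 320 in QPC cKO, and Cxcl2 at 1764 against 276. The inflammatory list summed to 12878 against 4094 CPM in pericytes, 12624 against 4152 in fibroblasts and 4381 against 1973 in endothelial cells. Pericytes of the 8 other libraries summed to between 1933 and 6183 CPM, so the E17.5 control was the highest of all 10. Rgs16 was at 748 against 384 CPM and Cxcl1 at 2422 against 619.

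Eln was at 324 CPM in the E17.5 control and 29.1 in QPC cKO, with 29.4% and 17.8% of pericytes holding it and 37.8% of the control UMIs in 1 cell. In fibroblasts it was at 436 against 354 CPM. Crem, a transcription factor induced by cyclic AMP, was at 104 against 18.7 CPM. No contractile gene of 29 differed by this rule, and Acta2 was at 5820 against 5559 CPM.

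The 4 genes with the lowest ratios were those of mast cells. Cma1, Cpa3, Srgn and Tpsb2 were at 317, 194, 76.7 and 62.1 CPM in the control, against 3.74, 2.01, 0.863 and 0.576 in QPC cKO. A single control cell gave 93.4% of the Cma1 UMIs and 95.2% of the Cpa3 UMIs. Without the 3 control cells that held at least 3 UMIs of mast markers, Cma1 was at 18.3 and Cpa3 at 9.16 CPM, while Ccl2 was at 1831 and Cxcl2 at 696.

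On the higher side Hoxc10, a homeobox gene of posterior position, was at 4.88 CPM (2.44 to 8.73) in the control, against 31.7 (26.0 to 38.2) in QPC cKO, a ratio of 5.56. Fibroblasts held 12.6 against 71.5 CPM. It was detected in 5.88% and 33.9% of pericytes, and in 17.1% to 34.8% of pericytes of the 8 other libraries. Ppp1r3c, a glycogen-targeting subunit of protein phosphatase 1, was at 10.2 against 38.0 CPM, and the heat shock gene Hspa1b at 39.0 against 90.7. The histone genes Hist1h1b and Hist1h2ae were at 22.6 against 69.6 and at 27.5 against 74.2 CPM. Cd24a, Pid1, Trim59, Kif20b and Runx1t1 completed the 10 highest ratios. For Cd24a a single QPC cKO cell held 73 of the 112 UMIs, or 65.2%, and 18.3% of pericytes held a UMI, against 16.8% in the control. With 1 library per genotype, the genotype and the library cannot be told apart.

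**Figure D5:**
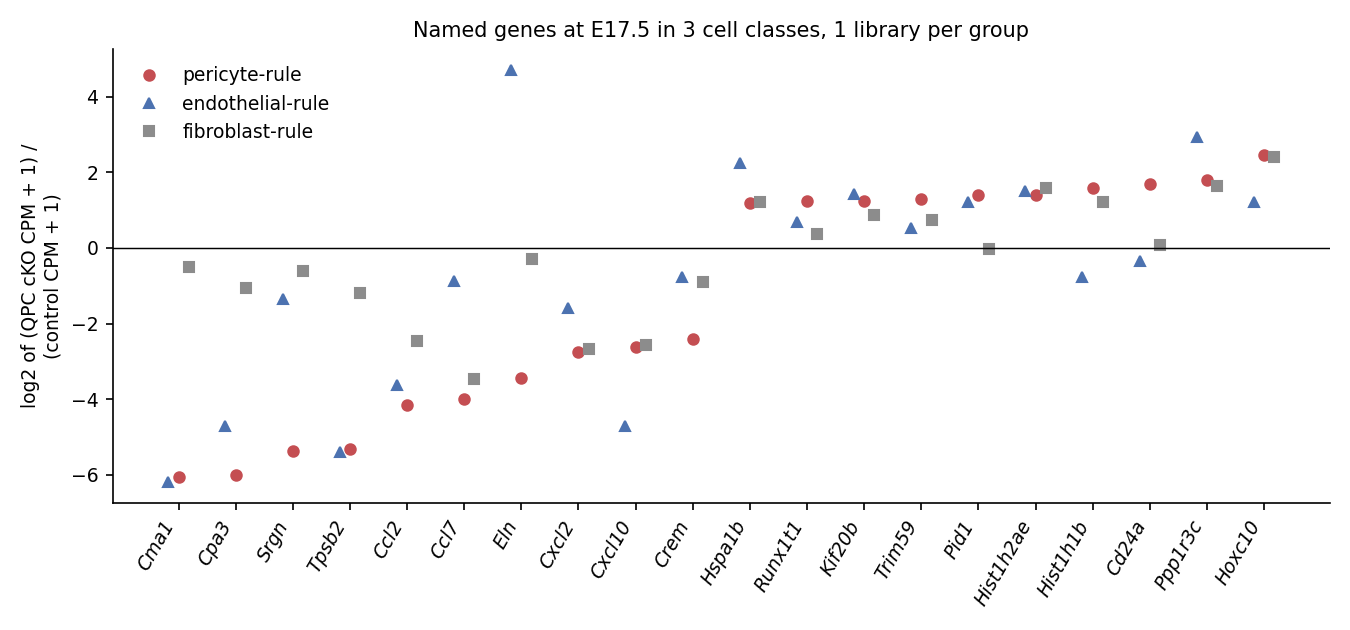
Log2 ratio of CPM (pseudocount 1) in QPC cKO to control at E17.5 for the named genes in pericytes, endothelial cells and fibroblasts, from 1 library per genotype. Ccl2, Cxcl2 and Cxcl10 lie below 0 in all 3 classes, and Hoxc10 lies above 0 in all 3, in endothelial cells from 0 and 1.32 CPM.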

How the data were processed

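Single-cell RNA libraries (10x Genomics) of back skin were analysed from the deposited matrices of UMI counts per gene and cell, which the authors made with Cell Ranger (versions 1.3.1 and 6.1.2 and build mm10, per the submitters' processing notes). Groups came from the sample labels. The members, gene lists and comparisons were chosen with earlier results of these data known. Doublets were not called, and cells holding markers of another type were instead left out as an alternative. UMIs were summed per library and class, genes were filtered with filterByExpr, and TMM-scaled counts were tested with the quasi-likelihood test of edgeR 4.0.16 in R 4.3.3 with Benjamini-Hochberg adjustment (threshold 0.05) over all genes. SE values were computed as the size of the fitted log2 change divided by the square root of its quasi-likelihood F statistic. Class comparisons had the library as a block. DESeq2 1.42.0, scaling by library size alone, no filter, other member definitions and leaving out each replicate were alternatives. Shares were compared by exact permutation in Python 3.11.15 with scipy 1.17.1. E17.5, with 1 library per genotype, had no test. Ratios there used a pseudocount of 1 CPM, at least 100 UMIs, a 2-fold limit and 95% intervals. The edgeR designs of E15.5, of E16.5 and of pericytes against fibroblasts were tried on simulated counts with known changes, and the other steps were not.

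The labels do not say that replicates came from separate litters, so p-values refer only to these samples. With so few libraries per group, edgeR draws the variance of a gene largely from all genes. Its p-values, those of the interaction included, can thus be far smaller than the gene's own spread between libraries would give. Depth limits precision most at E16.5, where the pericytes of a library summed to as few as 158288 UMIs.

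Named genes were the marker and targeted genes, for each MOF cKO comparison 10 genes per direction among those with non-overlapping groups and at least 50 CPM in either group (called genes first, then by smallest unadjusted p), the 10 highest and 10 lowest E17.5 ratios, 15 higher and 10 lower genes against each other class, and the called or highest members of each list. Mitochondrially encoded and sex-linked marker genes were not named. Cav1, Procr, Tpm1, Lum and Col6a1 in the ranking by contractile share, Lyz2, Fabp7 and Mki67, Ifitm3 and Isg15 at E15.5, and Cxcl1 and Rgs16 at E17.5 were named after their values were seen.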

Additional observations from a re-analysis of the deposited data

How the results depend on the processing

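The share difference was -0.01845 percentage points at E15.5 and -1.58 at E17.5 over kept cells with few keratin UMIs. It was -0.196 at E15.5 with mitochondrial UMIs under 5%. At E17.5 it was -0.136 with no keratin limit and 0.0140 with stricter members, which had no UMI of 10 further markers of other types and were only 1 control and 2 QPC cKO cells. Thinned to 4000 UMIs per cell it was 0.447, 0.698 and 0.157 at E15.5, E16.5 and E17.5. Leaving out 1 library gave 0.0588 to 1.33 at E15.5, 0.540 to 1.57 at E16.5 and 0.557 to 1.19 over both. Called genes at E15.5, 0 as reported, were 15 with DESeq2, 6 with library size alone, 281 without a filter, 7 with stricter members, 11 without the keratin limit, 3 in the fit of 8 libraries and 3 to 102 with 1 library left out. At E16.5, 1 as reported, they were 5, 103 and 14 with DESeq2, without a filter and with stricter members, 38 in the fit of 8 libraries, 0 with stricter members and no keratin limit, and 4 (without MOF cKO replicate 2) to 172 (without control replicate 2) with 1 left out. The labels do not say that replicate numbers pair E16.5 libraries. The deviations of same-numbered libraries correlated at -0.134 over 3460 genes, and 0 genes were called with a replicate block or with its crossed pairing, chosen after seeing the data, as were the alternatives on the keratin limit and those leaving libraries out of the interaction. The stage difference, 0 as reported, gave 27 with DESeq2, 82 without a filter, 43 with stricter members and 0 to 8 with 1 left out. Without E15.5 libraries 2855 genes differed from endothelial cells and 4697 from fibroblasts. The interaction of class and genotype gave 5 with DESeq2 and 0 with stricter members at E16.5, and 11, 12, 325 and 332 with DESeq2, library size alone, no filter and stricter members at E15.5. With 1 library left out it gave 36 to 87 at E16.5, where Cxcl10 ran from -5.92 to 6.58 and Ccl2 from -2.75 to 1.40, and 20 to 165 at E15.5. E17.5 gave 314 genes at 30 UMIs and 9 with the 3 cells of the stricter members, 130 as reported. The cause of these changes was not tested. With stricter members at E16.5, only 1, 4, 1 and 6 cells per library, interactions reversed to -3.31 for Ube2c, -8.65 for Nusap1, -8.72 for Top2a, -1.69 for Hmgb2, -8.44 for Aurkb, -1.64 for Cks2, -1.98 for Cdk1, 0.28 for Igfbp4, 2.67 for Acta2, 0.063 for Csrp2, 4.60 for Tagln, 7.30 for Eln, 0.74 for Col1a2, 7.12 for Cxcl10, 8.59 for Ccl2, 9.61 for Cxcl1, 9.49 for Irf1 and 5.31 for Isg15. Uqcrq at E16.5 was -0.22 without control replicate 1 and 1.17 without control replicate 2. Refits of the genes named at E15.5 left 194 values unchanged in direction and call and brought 46 under the threshold. Those at E16.5 left 175 unchanged, brought 67 under it, lost 3 and reversed 1. Refits of the interaction left 117 unchanged, lost 119 and reversed 20 at E16.5, and left 25 unchanged and lost 23 at E15.5.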
